A study of Mus musculus with 22 samples.

Results

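Alveolar macrophages and Ly6Chi monocytes from mouse lung were compared in the transcripts of 10 genes that take up particles, lipids and dying cells: the scavenger receptors Marco, Msr1, Cd36, Scarb1 and Stab1, the receptor tyrosine kinases Mertk and Axl, the phosphatidylserine receptor Timd4, and the secreted bridging proteins Gas6 and Mfge8. The genes were listed by name, mapped from Ensembl identifiers to mouse symbols, and looked up in the count tables of both cell types. All 10 were present in both tables, out of 55439 genes in the 2 tables together, and all 10 passed the filter on low counts in both cell types.

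Scavenger receptors bind modified lipoproteins, surfactant lipid, bacteria and dust, and in the air spaces they are best known on the resident alveolar macrophage. Efferocytosis, the engulfment of dying cells, starts when phosphatidylserine appears on the outside of the dying cell. It is bound either directly, as by Timd4, or through a soluble bridge, Gas6 for Mertk and Axl and Mfge8 for the alpha-v integrins.

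The study followed lung injury in C57BL/6 mice that carry SP-CI73T, a mutant form of surfactant protein C, the protein made by alveolar type 2 cells of the epithelium. A single oral gavage of tamoxifen excises a neomycin cassette from the mutant allele and raises its expression. The excision is done by an estrogen-receptor-controlled Flp-O recombinase at the Rosa26 locus, which is not restricted to the epithelium. Adult mice of both sexes were used. All 6 groups carried the mutant allele. Macrophages sorted as SigF+CD11b- came from 4 control samples, 3 samples at 3 d and 3 samples at 14 d after tamoxifen. Ly6Chi monocytes came from 4 control samples, 4 samples at 3 d and 4 samples at 14 d. The labels call the controls untreated. The study's methods describe controls in general as a pool of oil-treated mutants carrying Flp-O and tamoxifen-treated mutants lacking it, its account of the sequenced monocytes names oil-treated mutants alone, and the kind of the macrophage controls was not worked out here. Lungs were lavaged and perfused before collagenase digestion. By the study's methods, the gate for monocytes first left out resident alveolar macrophages, eosinophils, Ly6G+ neutrophils and CD3+ lymphocytes. Poly(A) RNA was sequenced and reads were counted per gene. The labels do not state whether replicates are separate animals, so p-values measure the spread between these samples. Whether both cell types came from the same lungs was not tested.

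Levels are given as CPM (counts per 1 M counts of a library scaled with TMM factors), computed for each cell type on its own. Samples are listed in the order of their replicate numbers, which carry no rank. A gene was called when the adjusted p was under 0.05 and the fold above 1.5, and rose and fell are used only for called genes. Results were recomputed with each library left out, and removals of 2 or 4 libraries together were chosen after seeing the data. Totals per library were 14437070 to 17074863 counts in control macrophages, 10692871 to 15410838 after 3 d and 4610720 to 6838893 after 14 d. The 14 d macrophages were therefore the shallowest libraries. Monocyte totals were 22135815 to 28789639 in controls, 15451460 to 20036958 at 3 d and 21131493 to 27013525 at 14 d. With 3 counts as the floor, the lowest level told from none was 0.197 to 0.507 CPM in a macrophage library and 0.121 to 0.161 CPM in a monocyte library, a floor that covers counting error only.

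Libraries of the groups differed in ways beyond the 10 genes. The 3 d monocytes had reads on 40119 to 41134 genes, compared with 24775 to 32492 in the other monocyte samples, and TMM factors were 1.20 to 1.24 there and 1.17 to 1.29 in the 14 d macrophages, compared with 0.841 to 0.994 in the other samples. Xist counts were 8 to 32 in the 14 d macrophages and 1 to 6 in the 14 d monocytes. Counts over 4 Y-linked genes were 433 to 966 and 1949 to 3033 in the same groups. Control and 3 d samples had at least 552 Xist counts and at most 3 Y-linked counts. Sex and the 14 d time point cannot be told apart in either cell type.

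The sorted cells carried the markers of their labels, except that the 14 d macrophages had more Itgam than controls. Itgam encodes CD11b, which the SigF+CD11b- gate leaves out. It had 34, 35, 20 and 11 counts in control macrophages, 256, 47 and 119 at 3 d and 711, 436 and 423 at 14 d. The 14 d levels were 102.4, 54.95 and 71.51 CPM, the highest of the monocyte markers in those samples. Siglecf, the gate's own antigen, was at 348, 231, 305 and 332 CPM in the 4 control macrophage samples, at 171, 322 and 124 at 3 d and at 119.7, 127 and 90.1 at 14 d. All 10 alveolar macrophage markers were detected in every sample, with Chil3 the most abundant. Their macrophage sums were 34870, 34000, 35310 and 30730 CPM in controls, 33870, 30120 and 58470 at 3 d and 24370, 30640 and 24230 at 14 d, below every control. At 14 d 8 of the 10, all but Chil3 and Car4, fell against control, beside 22.9% of all genes and 45.6% of genes with a mean log2 CPM above 4, in the group where Cd36, Mertk and Axl fell. The 6 monocyte markers, all detected in every sample, summed to 10780, 9507, 7588 and 8168 CPM in control monocytes, 6978, 7196, 7788 and 8088 at 3 d and 7207, 5488, 4994 and 5199 at 14 d, below every control, whereas macrophage samples had 30.7 to 271 CPM. Ly6c2 or Plac8 led in controls and Ccr2 at 14 d, when Ly6c2 and Plac8 were among those that fell and Vcan rose. The part of these shifts in the changes of the 10 genes was not tested. Alveolar macrophage markers were present in the monocytes too, all 10 in every sample and led by Chil3. They summed to 15780, 9724, 12070 and 8782 CPM in controls, 8761, 4531, 8278 and 9560 at 3 d, overlapping the controls, and 16460, 20500, 23200 and 22370 at 14 d, above every other monocyte sample and below the 24230 to 30640 CPM of the 14 d macrophages. Chil3 made up 80% to 94.4% of each of these sums. Against control, Chil3, Fabp5 and Lpl rose at 14 d, 3 of the 10 beside 3.22% of all genes, and 5 of the others had negative changes, -2.85 for Krt79, -1.96 for Siglecf, -0.87 for Ear2, -0.86 for Fabp4 and -0.24 for Car4, none called. Against 3 d, Chil3, Itgax, Ear2, Lpl and Atp6v0d2 rose, 5 of the 10 beside 12% of all genes and 28.3% of genes with a mean log2 CPM above 4. Monocyte Cd36, Mertk, Axl and Mfge8 were likewise higher at 14 d than at 3 d, and the part of these markers in that was not tested. Siglecf of the monocytes did not follow the sum, and was at 3.89, 3.55, 29.2 and 19.4 CPM in controls, highest in control samples 3 and 4, and at most 6.56 CPM at 3 d and 14 d.

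Markers of other cells moved with the groups. In macrophages every 3 d sample was above every control in the sums of 6 of the lists, those of monocyte, B cell, neutrophil, endothelial, platelet and eosinophil markers. Erythroid sums were 179.5, 38.01, 711.5 and 244.8 CPM in controls and 16.48, 111 and 5.944 at 3 d, where samples 1 and 3 were below every control. At 14 d the erythroid sums were 155.3, 40.71 and 36.86 CPM. The 4 B cell markers, all detected and led by Cd79a or Cd79b, summed to 142, 131, 100.5 and 54.2 CPM in controls, 297, 166 and 529 at 3 d and 163, 88.5 and 92.5 at 14 d. The monocyte markers of these samples summed to 57.6, 46.4, 56.2 and 30.7 CPM, then 131, 89.6 and 234, then 271, 146 and 149. The 5 endothelial markers, led by Pecam1, summed to 8.06 to 18.1 CPM in controls, 30.4, 21.3 and 41.7 at 3 d and 45.5, 37.5 and 34.3 at 14 d, and the 4 platelet markers to 3.15 to 8.52 CPM, then 14.6, 10.1 and 12.2, then 18.4, 12.2 and 17.8. Of the platelet markers Itga2b rose at 3 d and Pf4 had a change of -0.41, not called. The 7 neutrophil markers, led by S100a8, S100a9 or Retnlg, summed to 7.39, 10.8, 16.4 and 7.24 CPM in controls, 87.5, 29.5 and 35.1 at 3 d and 1143, 1425 and 345 at 14 d. Of these, Ly6g was at 0 in 14 d sample 3 and Camp was at 0 in 3 of the 4 controls. The 4 eosinophil markers, led by Prg2 at 14 d, summed to 0.664 to 1.90 CPM in controls, 2.01, 1.94 and 2.92 at 3 d and 101, 28.4 and 107 at 14 d. The 5 fibroblast markers, led by Col3a1, summed to 16.2 to 22.1 CPM in controls and 209, 151 and 331 at 14 d. C1qa, a marker of interstitial macrophages, was at 0.411 to 4.00 CPM in control macrophages and 154, 61.0 and 157 at 14 d. All 9 interstitial macrophage markers were detected at 14 d, and their sum, led by Mrc1, was 1025, 894 and 924 CPM, compared with 1451, 1513, 1623 and 1857 in controls, where Mrc1 made up 98.6% to 99.7% of it. The part of other cells in the changes of the 10 genes, the 3 d rise of Timd4 included, was not tested, and in bulk samples fewer cells of a type and less RNA per cell cannot be told apart.

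In monocytes, the 7 T and NK cell markers, led by Gzma, summed to 319, 478, 1360.0 and 1154 CPM in controls, 15.8, 266, 34.5 and 39.9 at 3 d and 34.7, 40.1, 18.8 and 31.6 at 14 d. The 4 erythroid markers, led by Hbb-bs or Hba-a1, summed to 622, 186, 3754 and 879 CPM in controls, 18.4, 328, 34.2 and 10.3 at 3 d and 83.2, 32.7, 19.2 and 3.06 at 14 d, where Alas2 was at 0 in sample 4. The 5 dendritic cell markers, all detected and led by Cd209a or Flt3, summed to 370.4, 359, 225 and 234 CPM in controls, 24.7, 50.5, 56.6 and 182 at 3 d and 113, 123, 158 and 184 at 14 d, so that all later samples were below all controls. Its members differed, since Flt3 fell at 3 d and rose at 14 d against control. The B cell sums, led by Cd79b, were 73.6 to 106 CPM in controls, 27.9 to 44.8 at 3 d and 23.4 to 48.1 at 14 d, and all 4 markers fell at both times. The alveolar type 2 sums, 1207 to 1550, 891 to 976 and 845 to 1197 CPM, were 91.7% to 98.8% Napsa, which was not called. Of that list Sftpc and Sftpa1 fell at both times and Sftpb rose at 3 d, and Lamp3 was at 0 in control 2 and 14 d sample 1. The interstitial macrophage markers summed to 1308, 859.9, 803 and 802 CPM in controls, where Cx3cr1 led, 268, 256, 482 and 518 at 3 d and 1046, 1642, 2221 and 1455 at 14 d, where C1qb led. Of the interstitial macrophage markers, Cx3cr1 fell at 3 d and 14 d. Platelet markers summed to 62.1 to 135 CPM at 14 d, compared with 14.4 to 18.8 CPM in controls, through Pf4, which was 88.2% to 95% of the 14 d sums. Itga2b fell at 14 d, and Ppbp and Gp9 were not called. The 5 fibroblast markers, all detected, summed to 3.23 to 11.5 CPM in controls, led by Col3a1 or Dcn, 13.3 to 15.4 at 3 d, led by Col1a1, and 3.71 to 14.2 at 14 d. The 4 eosinophil markers, of which 2 or 3 were detected in each sample, summed to 0.447 to 1.33 CPM in controls, 1.46 to 2.29 at 3 d, led by Il5ra, and 0.266 to 0.887 at 14 d. The endothelial markers, led by Pecam1, summed to 13.8 to 28.3 CPM, then 27.1 to 33.9, then 13.5 to 18.0. Neutrophil markers, led by S100a8, summed to 14.1, 16.6, 104 and 165 CPM in controls, 973, 434, 662 and 39.7 at 3 d and 797, 697, 215 and 171 at 14 d. Control samples 3 and 4 had the highest sums of T and NK cell, erythroid and neutrophil markers among the controls. Some of these markers belong to cells that the gate left out, and their part in the monocyte changes was not tested.

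The first comparison asked what mutant induction changed in the sorted alveolar macrophages during the early phase of injury. At 3 d, 1 of the 10 genes rose, Timd4, where 1.05% of the 20944 genes tested were called up. None fell in edgeR's quasi-likelihood test, where 0.224% of genes were called down. Of the 10, 3 were lower at an unadjusted p under 0.05, and DESeq2 called 0 of them lower. Over all genes kept, 3 d sample 2 correlated more closely with every control than with either other 3 d sample. Without that sample Mertk and Axl were called down and Mfge8 up. The median log2 change of the 10 was 0.03, beside -0.01 over all genes tested. At 14 d, Gas6, Stab1, Timd4 and Mfge8 rose, 4 of 10, where 39.4% of all genes were called up. Cd36, Mertk and Axl fell, 3 of 10, where 22.9% were called down. The median was 0.35, beside 0.18 over all genes. Between 3 d and 14 d, Gas6, Stab1 and Mfge8 rose, 3 of 10, beside 36.3% of all genes, and Cd36, Mertk, Axl and Timd4 fell, 4 of 10, beside 20%, with a median of -0.14, beside 0.16.

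In monocytes the same questions were asked of the cells sorted as Ly6Chi. At 3 d, Gas6, Stab1 and Timd4 rose, 3 of 10, where 36.8% of the 22353 genes tested were called up. Marco, Cd36, Scarb1, Axl and Mfge8 fell, 5 of 10, where 14.4% were called down, and the median was -0.67, beside 0.22 over all genes. At 14 d against control, Gas6 and Stab1 rose, 2 of 10, beside 3.22% of all genes, and Scarb1 fell, 1 of 10, beside 5.34%, with a median of 0.49, beside 0.09. From 3 d to 14 d, Msr1, Cd36, Mertk, Axl, Stab1 and Mfge8 rose, 6 of 10, where 12% of all genes and 28.3% of genes with a mean log2 CPM above 4 were called up. None fell in edgeR's quasi-likelihood test, where 34.5% of all genes and 2.61% of those above 4 were called down. At an unadjusted p under 0.05, 0 of the 10 were lower, DESeq2 called 1 lower, Timd4, and the median was 1.20, beside -0.26 over all genes and 0.45 over those above 4. The 3 comparisons of a cell type share samples, so their results are not independent of each other.

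The background differed by abundance. In the 14 d macrophages, 5.84% of genes with a mean log2 CPM above 4 were called up and 45.6% down, whereas 77.9% of genes at a mean of at most 1 were called up. Of the 10 genes, 7 were in the upper class, where 3 fell and 1, Mfge8, rose, and Gas6 was in the lowest. In the 3 d monocytes, 38.0% of genes above 4 were called down and 66.6% of genes at or under 1 called up. Here 4 of the 5 members above 4 fell, and both members at or under 1, Gas6 and Timd4, rose. From 3 d to 14 d, 4.81% of macrophage genes above 4 were called up and 40.4% down, where 1 of 7 members rose and 3 fell, and 73.4% at or under 1 were called up. In monocytes from 3 d to 14 d, 28.3% of genes above 4 were called up and 2.61% down, where 4 of 5 members rose, and 1.22% and 61.3% of genes at or under 1, where neither of 2 was called. Between the classes 15.9% were called up and 13.3% down, where 2 of 3 members rose. The falls of abundant members and rises of rare members at 3 d in monocytes and 14 d in macrophages, and the rises of abundant monocyte members from 3 d to 14 d, were of the direction that more of the called genes of like abundance took. The median over all genes also moved with the scaling, from 0.18 to 0.61 with library sizes and 0.73 with TMM factors from abundant genes in the 14 d macrophages, and from 0.22 to 0.70 and 0.74 in the 3 d monocytes. Between 3 d and 14 d it moved from 0.16 to 0.59 and 0.65 in macrophages and from -0.26 to -0.64 and -0.72 in monocytes, and at 14 d against control in monocytes from 0.09 to 0.19 with library sizes.

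**Figure D1:**
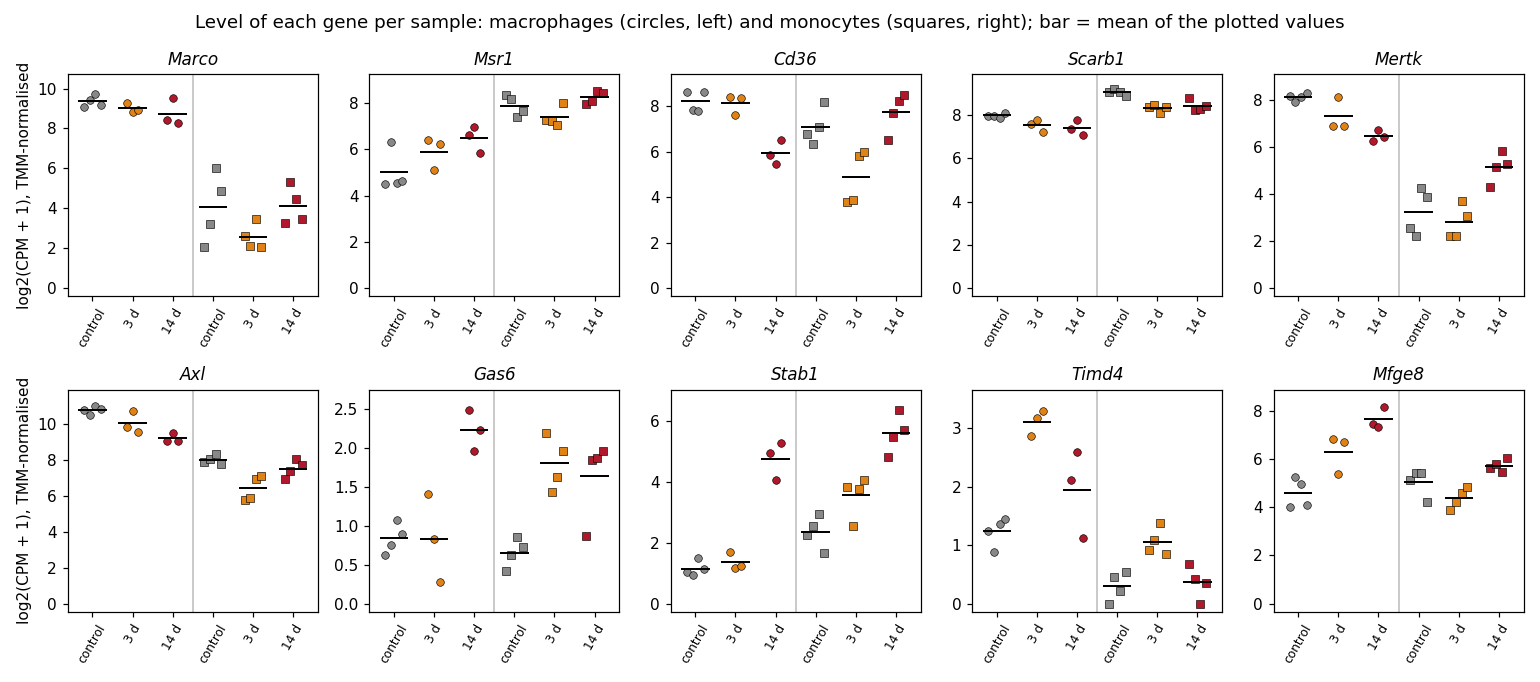
Level of each of the 10 genes as log2 of TMM-normalised CPM plus 1, with 1 point per sample, macrophages as circles on the left and monocytes as squares on the right, and a bar at the mean of the plotted values. Cd36, Mertk and Axl of the 14 d macrophages sit below every control and 3 d macrophage sample, and Stab1 sits above them.

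Marco (macrophage receptor with collagenous structure), a class A receptor for bacteria and unopsonised particles, marks alveolar macrophages. Its level was 541, 692, 848 and 578 CPM in control macrophages. It was 622, 448 and 483 CPM at 3 d and 341, 732 and 308 CPM at 14 d. The groups overlapped, since 14 d sample 2 lay among the controls while the other 2 samples of that group lay below all of them. The log2 fold change was -0.36 at 3 d (95% interval -0.94 to 0.22) and -0.53 at 14 d (95% interval -1.12 to 0.06), neither called. Without 14 d sample 2 the 14 d change was -1.06, called, and the change from 3 d to 14 d went from -0.17 to -0.70, called. Without 3 d sample 1 the 14 d change was -0.67, called, and with no filter on low counts it was -0.74, called. It was -0.11 with library size scaling and 0.00 with TMM factors from abundant genes, neither called, and 0.00 relative to genes of like abundance.

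Monocyte Marco was far lower. Controls had 3.23, 8.18, 64.1 and 28.0 CPM, the 3 d samples 5.16, 3.32, 9.89 and 3.11 CPM and the 14 d samples 8.72, 39.1, 21.2 and 9.88 CPM. Control samples 3 and 4, which also had the most Siglecf, were the highest of the controls, and controls 1 and 2 lay within the range of the 3 d samples. At 3 d the gene fell, with a log2 fold change of -2.27, 95% interval -4.10 to -0.44, adjusted p = 0.0367 in edgeR's quasi-likelihood test with Benjamini-Hochberg adjustment. This call was lost at -1.80 with library size scaling, -1.75 with TMM factors from abundant genes, -2.49 with no filter and -1.87 with the stricter filter, and was kept in DESeq2. The change was -1.34 without control 3 and -2.21 without control 4, neither called, and -0.15 without both, a removal chosen after seeing the data. The call was also lost, at -2.26 to -2.07, without 3 d sample 1, 2 or 4 or 14 d sample 4. The change from 3 d to 14 d, 1.88, was not called with all samples. It was called without control 1, at 1.93, without control 3, at 1.93, and without controls 3 and 4, at 1.96. The cell type difference at 14 d, -0.49, was called, at -2.42, only without monocyte controls 3 and 4, macrophage control 2 and macrophage 3 d sample 2, a removal chosen after seeing the data.

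Msr1 (macrophage scavenger receptor 1) is the class A receptor for modified low-density lipoprotein. Control macrophages had 21.6, 78.9, 22.5 and 23.8 CPM. The 3 d level was 83.1, 33.1 and 73.8 CPM and at 14 d 97.5, 123 and 57.0 CPM. Control 2 stood apart from the other 3 controls, at a level reached by 1 of the 3 d samples and 2 of the 14 d samples. The 14 d change was 1.34 (95% interval 0.03 to 2.65), not called. Without control 2 it was 2.04, with an adjusted p of 0.000369 in edgeR's quasi-likelihood test with Benjamini-Hochberg adjustment, over a range of 0.000369 to 0.203 when each library was left out in turn. The 3 d change of 0.79 was called, at 1.83, when control 2 and 3 d sample 2 were both left out, and the 14 d change was then 1.87, called. Library size scaling gave 1.76 at 14 d, TMM factors from abundant genes 1.86, a stricter filter, which keeps genes whose mean log2 CPM passes 1, 1.68 and DESeq2 1.48, all called.

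In monocytes, Msr1 was higher than in macrophages in every sample. It was at 322, 288, 168 and 204 CPM in controls, 152, 148, 131 and 253 CPM at 3 d and 249, 268, 368 and 347 CPM at 14 d. Sample 4 at 3 d stood above the other 3, which were all below every control. The change at 3 d was -0.52, not called. It was called without control 3 (-0.70), without 3 d sample 4 (-0.79), without controls 3 and 4 (-0.90) and with no filter on low counts (-0.79). Msr1 rose from 3 d to 14 d, with a log2 fold change of 0.85, 95% interval 0.33 to 1.36, adjusted p = 0.0117 in edgeR's quasi-likelihood test with Benjamini-Hochberg adjustment. The call was lost at 0.73 without 3 d sample 1, 0.73 without sample 2 and 0.66 without sample 3, and at 0.45 with library size scaling, 0.38 with TMM factors from abundant genes and 0.45 with the stricter filter. The cell type difference, 1.15 at 3 d and 0.68 at 14 d, was called only without macrophage control 2, at 1.80 and 1.33, and without that library, macrophage 3 d sample 2 and monocyte controls 3 and 4, at 2.74 and 1.94.

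Cd36, a class B receptor, takes up oxidised lipid and long-chain fatty acids and binds thrombospondin. The control macrophages had 393, 229, 223 and 396 CPM. Samples at 3 d had 342, 197 and 325 CPM, within or just under the control range. All 3 samples at 14 d were far lower, at 56.5, 43.2 and 91.3 CPM, and none reached the lowest control or 3 d sample. At 14 d Cd36 fell, with a log2 fold change of -2.29, 95% interval -2.99 to -1.58, adjusted p = 9.65e-05 in edgeR's quasi-likelihood test with Benjamini-Hochberg adjustment. It also fell from 3 d to 14 d, with a log2 fold change of -2.18, 95% interval -2.91 to -1.45, adjusted p = 0.000323 in edgeR's quasi-likelihood test with Benjamini-Hochberg adjustment. Both calls were made under each of the 6 alternatives and each removal of a library, where the 14 d change was -2.70 to -2.10 over the removals. Genes of like abundance also shifted down at 14 d, and the Cd36 change was -1.75 relative to their median, or -1.74 with library size scaling.

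Monocyte Cd36 dipped at 3 d. It was at 109, 80.9, 134 and 291 CPM in controls, 12.8, 13.7, 55.5 and 62.4 CPM at 3 d and 90.1, 207, 299 and 359.9 CPM at 14 d. Every 3 d sample lay under every control and every 14 d sample, while controls and 14 d samples overlapped. The fall at 3 d had a log2 fold change of -2.09, 95% interval -3.47 to -0.71, adjusted p = 0.0155 in edgeR's quasi-likelihood test with Benjamini-Hochberg adjustment. The call was lost without control 4, the highest control, at -1.56, without controls 3 and 4, at -1.47, with TMM factors from abundant genes, at -1.56, and with the stricter filter, at -1.67. Cd36 rose from 3 d to 14 d, with a log2 fold change of 2.73, 95% interval 1.32 to 4.14, adjusted p = 0.00647 in edgeR's quasi-likelihood test with Benjamini-Hochberg adjustment, and against control the 14 d change was 0.64 (95% interval -0.69 to 1.96), not called. The 14 d change differed between the cell types by -3.24 on the log2 scale, macrophage change minus monocyte change (95% interval -5.01 to -1.47, adjusted p = 0.00677 for the interaction in edgeR's quasi-likelihood test with Benjamini-Hochberg adjustment). Interactions of 4 of the 10 genes were called at 14 d, where 36.8% of the 26692 genes tested were, and of 2 of the 10 at 3 d, where 18.7% were. The median interaction of the 10 was -0.19 at 14 d, beside 0.48 over all genes, and 0.40 at 3 d, beside -0.63. Over genes with a mean log2 CPM above 1 the medians had the other sign, -0.73 at 14 d and 0.17 at 3 d. With library sizes the medians over all genes were 1.16 and -0.91.

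Scarb1 encodes the receptor through which cells exchange cholesterol with high-density lipoprotein. It was at 253, 249, 237 and 278 CPM in control macrophages, 194, 219 and 151 CPM at 3 d and 164, 219 and 135 CPM at 14 d. No sample after tamoxifen reached the lowest control, and the 3 d and 14 d samples overlapped. The 14 d log2 fold change was -0.56, with an adjusted p of 0.00895 in edgeR's quasi-likelihood test with Benjamini-Hochberg adjustment but a fold of 1.47, short of 1.5, so that it was not called. It passed 1.5 without 3 d sample 1 (-0.70), 2 (-0.75) or 3 (-0.71), without 14 d sample 2 (-0.79), without control 2 and 3 d sample 2 (-0.73) and with no filter (-0.76). Relative to genes of like abundance the change was -0.02, and TMM factors from abundant genes gave -0.01.

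Scarb1 was more abundant in monocytes, at 539.5, 602, 539.9 and 471 CPM in controls. It was at 333, 359, 275 and 336 CPM at 3 d and 447, 298, 316 and 348 CPM at 14 d. All 8 samples after tamoxifen lay below all 4 controls. It fell at 3 d, with a log2 fold change of -0.72, 95% interval -1.04 to -0.41, adjusted p = 0.00185 in edgeR's quasi-likelihood test with Benjamini-Hochberg adjustment. It fell at 14 d as well, with a log2 fold change of -0.61, 95% interval -0.93 to -0.30, adjusted p = 0.0167 in edgeR's quasi-likelihood test with Benjamini-Hochberg adjustment. The 3 d change shrank to -0.23 with library size scaling, -0.20 with TMM factors from abundant genes and -0.34 with the stricter filter, none called, and to -0.58, under a fold of 1.5, without 3 d sample 3. Against genes of like abundance it was -0.21. The 14 d call was lost at -0.55 without control 2, -0.53 without 14 d sample 2, -0.57 without 14 d sample 3, -0.49 with library size scaling and -0.55 with TMM factors from abundant genes.

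Stab1 (stabilin-1) clears acetylated lipoprotein and extracellular matrix proteins and binds phosphatidylserine. In macrophages it was close to absent in controls, at 1.03, 0.912, 1.84 and 1.20 CPM, from 12 to 28 counts. The 3 d samples were similar, at 2.22, 1.24 and 1.36 CPM, and overlapped the controls. All 3 samples at 14 d were higher by an order of magnitude, at 29.5, 15.5 and 37.9 CPM. Stab1 rose at 14 d by 21.9-fold, with a log2 fold change of 4.45, 95% interval 3.73 to 5.18, adjusted p = 3.92e-07 in edgeR's quasi-likelihood test with Benjamini-Hochberg adjustment. It rose from 3 d to 14 d with a log2 fold change of 4.08, 95% interval 3.27 to 4.88, adjusted p = 8.04e-06 in edgeR's quasi-likelihood test with Benjamini-Hochberg adjustment, and at 3 d the change against control was 0.38 (95% interval -0.43 to 1.18). The 14 d call was made in every alternative, at 4.25 to 5.04, and every removal, at 4.10 to 4.71. Relative to genes of like abundance the change was 4.42, or 4.45 with library size scaling.

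In monocytes Stab1 was stepwise higher over time. Controls had 3.77, 4.89, 6.71 and 2.16 CPM, 3 d samples 13.3, 4.85, 12.6 and 15.7 CPM and 14 d samples 26.9, 43.4, 80.7 and 51.3 CPM. Sample 2 at 3 d lay within the control range and the other 3 above it, and every 14 d sample was above every control and 3 d sample. At 3 d it rose with a log2 fold change of 1.41, 95% interval 0.52 to 2.29, adjusted p = 0.0114 in edgeR's quasi-likelihood test with Benjamini-Hochberg adjustment, a call lost with no filter on low counts, at 1.15. At 14 d it rose by 11.5-fold against control, with a log2 fold change of 3.53, 95% interval 2.59 to 4.47, adjusted p = 0.000172 in edgeR's quasi-likelihood test with Benjamini-Hochberg adjustment. The further rise from 3 d to 14 d had a log2 fold change of 2.12, 95% interval 1.24 to 3.00, adjusted p = 0.00209 in edgeR's quasi-likelihood test with Benjamini-Hochberg adjustment. The difference between cell types in the 14 d change was 0.59 (95% interval -0.64 to 1.81), not called.

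Mertk, with Tyro3 and Axl 1 of the 3 TAM receptors, serves engulfment by resident macrophages, and its ectodomain can be shed. The macrophage controls had 286, 243, 281 and 313 CPM, a narrow range. At 3 d samples 1 and 3 were at less than 50% of the lowest control and sample 2 was within the control range, at 119.5, 283 and 117 CPM. At 14 d all 3 samples, at 76.2, 105 and 85.7 CPM, lay below every control and 3 d sample. Mertk fell at 14 d, with a log2 fold change of -1.66, 95% interval -2.26 to -1.06, adjusted p = 0.00022 in edgeR's quasi-likelihood test with Benjamini-Hochberg adjustment. The 3 d change of -0.70 was not called with all samples and was -1.21, called, without 3 d sample 2, and -1.27, called, without that sample and control 2. The 14 d change was -1.13 relative to genes of like abundance, and -1.87 to -1.10 over the 6 alternatives, called in each. Mertk also fell from 3 d to 14 d, by 0.96 on the log2 scale (adjusted p = 0.0105, edgeR's quasi-likelihood test with Benjamini-Hochberg adjustment). That call was lost at -0.55 with library size scaling, -0.47 with TMM factors from abundant genes, -0.62 with the stricter filter and -0.99 without 14 d sample 3.

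Mertk went the other way in monocytes. Its level was 4.93, 3.71, 18.4 and 13.9 CPM in controls, 3.62, 3.64, 12.3 and 7.39 CPM at 3 d and 18.5, 34.5, 56.8 and 37.9 CPM at 14 d. Controls and 3 d samples overlapped, and all 4 samples at 14 d were above them, the lowest only just above control 3. The rise from 3 d to 14 d had a log2 fold change of 2.46, 95% interval 1.25 to 3.67, adjusted p = 0.00465 in edgeR's quasi-likelihood test with Benjamini-Hochberg adjustment. Against control the 14 d change was 1.85, with an adjusted p of 0.0532 in edgeR's quasi-likelihood test with Benjamini-Hochberg adjustment, over a range of 0.0323 to 0.157 when each library was left out in turn. It was called with library size scaling (1.92), the stricter filter (1.86) and DESeq2 (1.87), and without control 3 (2.30), 3 d sample 3 (1.84), 14 d sample 1 (2.07) or controls 3 and 4 (3.10). The interaction at 14 d was -3.85 (95% interval -5.38 to -2.31, adjusted p = 0.00069, edgeR's quasi-likelihood test with Benjamini-Hochberg adjustment), the largest difference between the cell types among the 10 genes. Without macrophage control 2, macrophage 3 d sample 2 and monocyte controls 3 and 4 it was -4.86, and it was called in all 4 alternatives of that fit.

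Axl, the TAM receptor with the highest affinity for Gas6, was with Marco 1 of the 2 most abundant of the 10 per kilobase in control macrophages. Controls had 1741, 1482, 2029 and 1841 CPM, the 3 d samples 923, 1700.1 and 754 CPM and the 14 d samples 539, 715 and 539 CPM. The pattern over samples was that of Mertk: 3 d sample 2 lay among the controls, 3 d samples 1 and 3 lay between controls and 14 d, and the 14 d samples lay below all others. Axl fell at 14 d, with a log2 fold change of -1.57, 95% interval -2.08 to -1.06, adjusted p = 6.98e-05 in edgeR's quasi-likelihood test with Benjamini-Hochberg adjustment, and was called in all 6 alternatives. At 3 d the change was -0.66, not called, and -1.04, called, without 3 d sample 2, or -1.12, called, without that sample and control 2. Axl fell from 3 d to 14 d by 0.91 on the log2 scale, a call lost at -0.51 with library size scaling, -0.43 with TMM factors from abundant genes and -0.57 with the stricter filter. Relative to genes of like abundance the 14 d change was -1.04. In 3 d sample 2 Siglecf was also within the control range, at 322 CPM, and in samples 1 and 3 it was at 171 and 124 CPM. Over all genes kept, Spearman correlations of 3 d sample 2 were 0.9728 to 0.976 with the controls. With 3 d samples 1 and 3 they were 0.9717 and 0.9669, and the cause was not tested.

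Monocyte Axl fell early and partly returned. It was at 239, 267, 320.4 and 222 CPM in controls, 52.7, 58.0, 120.5 and 138 CPM at 3 d and 123, 168, 267 and 207 CPM at 14 d. No 3 d sample reached the lowest control, and the 14 d samples overlapped both other groups. The fall at 3 d had a log2 fold change of -1.51, 95% interval -2.17 to -0.84, adjusted p = 0.00195 in edgeR's quasi-likelihood test with Benjamini-Hochberg adjustment, and was called in all 6 alternatives and without any single library. The rise from 3 d to 14 d had a log2 fold change of 1.05, 95% interval 0.39 to 1.70, adjusted p = 0.0133 in edgeR's quasi-likelihood test with Benjamini-Hochberg adjustment, a call lost at 0.65 with library size scaling, 0.57 with TMM factors from abundant genes and 0.65 with the stricter filter. At 14 d the change against control was -0.46 (95% interval -1.11 to 0.19). The interaction at 14 d was -1.46 (adjusted p = 0.0116, edgeR's quasi-likelihood test with Benjamini-Hochberg adjustment), and was not called with library size scaling (-0.78), TMM factors from abundant genes (-0.66) or the stricter filter (-0.85).

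Tyro3, the remaining TAM receptor, was rare in macrophages, at 0.685, 1.14, 0.721 and 0.863 CPM in controls and 1.65, 1.40 and 1.77 CPM at 3 d. It was at 13.0, 5.80 and 19.9 CPM at 14 d, above every other sample. It rose at 14 d, with a log2 fold change of 3.90, 95% interval 3.06 to 4.74, adjusted p = 2.19e-06 in edgeR's quasi-likelihood test with Benjamini-Hochberg adjustment, in the group where Mertk and Axl fell. Monocyte counts of Tyro3 were 1, 0, 4 and 0 in controls, 23, 14, 20 and 23 at 3 d and 0, 3, 0 and 3 at 14 d. Monocyte Tyro3 was called up at 3 d against control and down from 3 d to 14 d, and both cell type differences were called. The 14 d counts did not pass the floor of 3 and 3 of the 4 control counts did not either, so no fold is given.

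**Figure D2:**
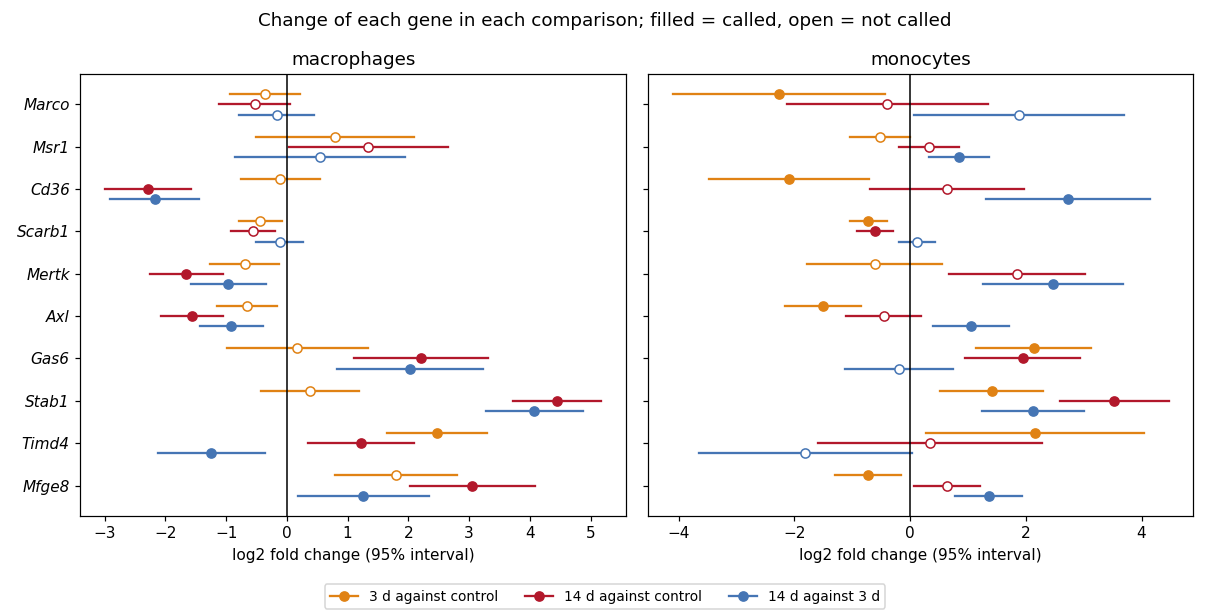
Log2 fold change of each of the 10 genes with its 95% interval for each pair of groups within a cell type, macrophages on the left and monocytes on the right, filled where called and open where not. In macrophages the 14 d changes of Mertk and Axl lie at -1.66 and -1.57, and in monocytes the 14 d against 3 d changes lie at 2.46 and 1.05.

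Gas6, the ligand that links Mertk and Axl to phosphatidylserine, was at the lower edge of detection. In macrophages it had 8, 9, 17 and 13 counts in controls, 23, 10 and 2 at 3 d and 32, 23 and 22 at 14 d. In CPM these were 0.548, 0.684, 1.11 and 0.863, then 1.65, 0.776 and 0.209, then 4.61, 2.90 and 3.72. The 3 d samples spread around the controls on both sides, and every 14 d sample was above both groups. Gas6 rose at 14 d, with a log2 fold change of 2.20, 95% interval 1.10 to 3.30, adjusted p = 0.00163 in edgeR's quasi-likelihood test with Benjamini-Hochberg adjustment. The rise from 3 d was 2.03, and moved to 2.69 without 3 d sample 1 and 1.43 without 3 d sample 3, called in both. Among genes of like abundance the median 14 d change was 2.96, so that Gas6 was -0.76 relative to them. Of its 2548 exonic bases, 34 overlap the opposite-strand gene Tmem255b, and reads from those bases cannot be told apart.

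In monocytes Gas6 had 8, 10, 20 and 16 counts in controls, 88, 38, 39 and 62 at 3 d and 18, 53, 50 and 72 at 14 d. The levels were 0.331, 0.538, 0.804 and 0.651 CPM, then 3.58, 1.71, 2.10 and 2.92 CPM, then 0.835, 2.61, 2.66 and 2.90 CPM. Controls were below every later sample, with 14 d sample 1 just above the highest of them and apart from the other 3. Gas6 rose at 3 d, with a log2 fold change of 2.13, 95% interval 1.14 to 3.13, adjusted p = 0.00255 in edgeR's quasi-likelihood test with Benjamini-Hochberg adjustment. It rose at 14 d, with a log2 fold change of 1.94, 95% interval 0.95 to 2.93, adjusted p = 0.0159 in edgeR's quasi-likelihood test with Benjamini-Hochberg adjustment, a call lost at 1.75 without control 1 and 1.85 without 14 d sample 3. At 3 d the median change of genes of like abundance was 2.66, and Gas6 was -0.52 relative to it, whereas at 14 d it was 1.69 above a median of 0.25. In macrophages the median 3 d change of genes of like abundance was 0.12. The interaction at 3 d was -2.15 (adjusted p = 0.0446, edgeR's quasi-likelihood test with Benjamini-Hochberg adjustment). It was called in 6 of 22 removals of a library. In the other 16 it was -2.31 to -1.52, the smallest without macrophage 3 d sample 3, and without macrophage 3 d sample 1 it was -2.84, called. With no filter it was -1.97, and without macrophage control 2, macrophage 3 d sample 2 and monocyte controls 3 and 4 it was -2.18, neither called.

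Pros1, protein S, the other soluble TAM ligand, was far more abundant than Gas6 in macrophages. It was at 297, 274, 289.6 and 343 CPM in controls, 198, 291 and 191 CPM at 3 d and 66.3, 91.7 and 52.7 CPM at 14 d, where every sample was below every control and 3 d sample. It fell at 14 d, with a log2 fold change of -2.10, 95% interval -2.52 to -1.67, adjusted p = 1.57e-06 in edgeR's quasi-likelihood test with Benjamini-Hochberg adjustment. In monocytes Pros1 was at 108, 88.6, 76.0 and 82.8 CPM in controls, 84.9, 59.9, 58.5 and 107 CPM at 3 d and 114, 69.3, 106 and 111 CPM at 14 d, with overlap between all groups and no call. Its interaction at 14 d was -2.62 (adjusted p = 2.07e-06, edgeR's quasi-likelihood test with Benjamini-Hochberg adjustment).

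Mfge8 (milk fat globule EGF factor 8) bridges phosphatidylserine on a dying cell to alpha-v integrins on the phagocyte. Macrophage controls had 14.9, 37.5, 30.6 and 16.2 CPM. The 3 d samples had 113, 40.1 and 105 CPM, of which sample 2 lay just above the highest control, and at 14 d 172, 161 and 285 CPM. The 3 groups did not overlap, in the order control, 3 d, 14 d. At 14 d Mfge8 rose by 8.32-fold, with a log2 fold change of 3.06, 95% interval 2.02 to 4.09, adjusted p = 0.000376 in edgeR's quasi-likelihood test with Benjamini-Hochberg adjustment, and relative to genes of like abundance by 3.59 on the log2 scale. The 3 d change of 1.80 (95% interval 0.79 to 2.80) was not called, while it was 2.18 without 3 d sample 2, 2.45 without that sample and control 2, and 1.85 in DESeq2, called in each. The rise from 3 d to 14 d, 1.2595 (adjusted p = 0.0431, edgeR's quasi-likelihood test with Benjamini-Hochberg adjustment), was lost in 7 of 10 removals. It was 1.27 without control 3, 1.36, 0.69 and 1.24 without 3 d samples 1, 2 and 3, and 1.33, 1.38 and 0.90 without 14 d samples 1, 2 and 3. With no filter it was 1.03 and without control 2 and 3 d sample 2 it was 0.71, neither called.

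Monocyte Mfge8 did not follow that order. The values were 34.1, 41.8, 41.4 and 17.8 CPM in controls, 13.9, 17.6, 22.8 and 27.3 CPM at 3 d and 48.5, 53.9, 42.6 and 64.4 CPM at 14 d. Control 4 lay among the 3 d samples and the other controls above them, and all 14 d samples were above all others. At 3 d the gene fell, with a log2 fold change of -0.73, 95% interval -1.30 to -0.15, adjusted p = 0.0324 in edgeR's quasi-likelihood test with Benjamini-Hochberg adjustment. The call was lost, at -0.71 to -0.53, without any of control 2, control 3 and 3 d samples 1, 2 and 3. It was also lost with library size scaling (-0.23), TMM factors from abundant genes (-0.19), the stricter filter (-0.34) and DESeq2 (-0.60), and the change was -0.21 relative to genes of like abundance. Mfge8 rose from 3 d to 14 d, with a log2 fold change of 1.36, 95% interval 0.78 to 1.94, adjusted p = 0.00227 in edgeR's quasi-likelihood test with Benjamini-Hochberg adjustment, a call made in all 6 alternatives and 12 removals. The macrophage change exceeded the monocyte change by 2.35 at 3 d (95% interval 1.29 to 3.41, adjusted p = 0.00527) and by 2.09 at 14 d (95% interval 1.03 to 3.14, adjusted p = 0.00351) in the interaction test of edgeR's quasi-likelihood fit with Benjamini-Hochberg adjustment. Without macrophage control 2, macrophage 3 d sample 2 and monocyte controls 3 and 4 these were 3.44 and 2.83.

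Timd4 (Tim-4), a phosphatidylserine receptor of long-lived tissue macrophages, was the one gene of the 10 called in macrophages at 3 d. Controls had 1.37, 0.836, 1.57 and 1.73 CPM, from 20, 11, 24 and 26 counts. The 3 d level was 6.31, 8.07 and 8.76 CPM, from 88, 104 and 84 counts, and at 14 d 3.31, 5.04 and 1.18 CPM, from 23, 40 and 7 counts. All 3 samples at 3 d were above every other macrophage sample, and 14 d sample 3 lay within the controls. The rise at 3 d was 5.53-fold, with a log2 fold change of 2.47, 95% interval 1.65 to 3.29, adjusted p = 0.00514 in edgeR's quasi-likelihood test with Benjamini-Hochberg adjustment. It was called in all 6 alternatives and without any single library, with log2 changes of 2.30 to 2.62 over the removals. At 14 d the rise had a log2 fold change of 1.22, 95% interval 0.35 to 2.09, adjusted p = 0.0152 in edgeR's quasi-likelihood test with Benjamini-Hochberg adjustment, and was lost at 0.69 without 14 d sample 2 and 0.89 without control 2 and 3 d sample 2. Timd4 fell from 3 d to 14 d by 1.25 on the log2 scale, a call lost at -0.84 with library size scaling, -0.80 with TMM factors from abundant genes and -0.93 with the stricter filter.

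Monocytes had few Timd4 counts, 0, 7, 4 and 11 in controls, 22, 25, 30 and 17 at 3 d and 13, 7, 0 and 7 at 14 d. The levels were 0, 0.377, 0.161 and 0.448 CPM, then 0.894, 1.12, 1.61 and 0.800 CPM, then 0.603, 0.345, 0 and 0.282 CPM. The 3 d samples were above all others, and control 1 and 14 d sample 3 had no count, which allows up to 0.124 and 0.160 CPM. At 3 d it was called up, with a log2 fold change of 2.16, 95% interval 0.28 to 4.03, adjusted p = 0.0489 in edgeR's quasi-likelihood test with Benjamini-Hochberg adjustment. That call was lost, at 1.69 to 2.37, without any of controls 1, 2 and 3, any 3 d sample or 14 d sample 2, and at 2.53 without controls 3 and 4. With no filter it was lost at 1.92. Relative to genes of like abundance the change was -0.50. The change from 3 d to 14 d, -1.81, was not called, but was with TMM factors from abundant genes (-2.26) and DESeq2 (-1.96).

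Levels of different genes were compared per kilobase of exonic length, in the order of their group means. In control macrophages Axl (352 CPM per kb) and Marco (345) led and did not differ beyond their spread, followed by Cd36 (86.3), Mertk (64.7) and Scarb1 (29.9). Msr1 (5.79) and Mfge8 (5.28) came next, and Timd4, Gas6 and Stab1 were under 1 CPM per kb. At 14 d the order began with Marco (239) and Axl (119), and Mfge8 (43.9) came next, above Mertk (20.5). In control monocytes Scarb1 (63.3), Axl (52.1), Cd36 (42.8) and Msr1 (38.7) led. At 14 d the first was Cd36 (66.6), ahead of Msr1 (48.5), which did not differ from it beyond the spread of the samples.

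Between the cell types, whose tables were normalised apart and are set side by side with no test, group means of CPM are given with their spread. Marco, Mertk and Axl were higher in every macrophage group than in any monocyte group, Marco from 460.3 ± 236 (SD, n = 3) to 665 ± 138 (SD, n = 4) in macrophages and from 5.37 ± 3.15 (SD, n = 4) to 25.9 ± 27.6 (SD, n = 4) in monocytes. Msr1 and Scarb1 were higher in every monocyte group, with Msr1 from 171 ± 55.5 (SD, n = 4) to 308 ± 58.3 (SD, n = 4) in monocytes and from 36.7 ± 28.1 (SD, n = 4) to 92.5 ± 33.3 (SD, n = 3) in macrophages. Stab1 was highest in the 14 d groups of both, at 50.6 ± 22.5 (SD, n = 4) in monocytes and 27.6 ± 11.3 (SD, n = 3) in macrophages, with overlapping samples. Mertk of the 14 d monocytes, at 36.9 ± 15.7 (SD, n = 4), was nearest to the 14 d macrophages, at 88.8 ± 14.5 (SD, n = 3), and the samples did not overlap.

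The wider pathway was followed through 6 lists of 55 further genes. In macrophages at 3 d, 2 of the 55 rose, Cxcl16 among them, beside 1.05% of all genes, and none fell in edgeR's quasi-likelihood test, beside 0.224%. At 14 d, 20 rose and 20 fell, beside 39.4% and 22.9% of all genes, with a median log2 change of -0.07, beside 0.18 over all genes. Of 15 other scavenger receptors 8 rose and 5 fell, and of 14 other phosphatidylserine receptors and bridges 7 rose and 3 fell. Of 12 genes of the engulfment machinery 2 rose and 5 fell. These counts are to be read beside the same 39.4% and 22.9%. Of genes with a mean log2 CPM above 4, 5.84% were called up and 45.6% down. Both genes of the do-not-eat-me signal, Sirpa among them, fell, beside the same 22.9% and 45.6%. Between 3 d and 14 d, 18 of the 55 rose and 17 fell, beside 36.3% and 20% of all genes. Among genes with a mean log2 CPM above 4 these shares were 4.81% and 40.4%. In monocytes at 3 d, 8 of the 53 tested rose and 26 fell, beside 36.8% and 14.4% of all genes, with a median of -0.63, beside 0.22. Of the 12 engulfment genes 9 fell, beside the 14.4% of all genes and 38.0% of genes with a mean log2 CPM above 4. At 14 d against control 8 of the 53 rose and 5 fell, beside 3.22% and 5.34%, and from 3 d to 14 d 22 rose and 9 fell, beside 12% and 34.5% of all genes and 28.3% and 2.61% of genes with a mean log2 CPM above 4.

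Partners of the 10 genes were among the genes of these lists that changed. Thbs1, thrombospondin-1, which binds Cd36 and the alpha-v integrins, was at 19.4, 19.5, 12.2 and 9.96 CPM in control macrophages and 282, 176 and 428 CPM at 14 d, and rose with a log2 fold change of 4.28, 95% interval 3.46 to 5.09, adjusted p = 7.09e-06 in edgeR's quasi-likelihood test with Benjamini-Hochberg adjustment. Abcg1, the exporter of cholesterol taken up by scavenger receptors, fell in the same group, with a log2 fold change of -2.51, 95% interval -3.07 to -1.96, adjusted p = 3.63e-06 in edgeR's quasi-likelihood test with Benjamini-Hochberg adjustment. Mrc1, the mannose receptor, was at 1445, 1492, 1607 and 1852 CPM in controls and 511, 637 and 401 CPM at 14 d, and fell by 1.63 (adjusted p = 3.63e-06, edgeR's quasi-likelihood test with Benjamini-Hochberg adjustment). Cxcl16, a scavenger receptor for oxidised lipid that also exists as a chemokine, rose in macrophages by 1.25 at 3 d and 1.75 at 14 d on the log2 scale, and in monocytes by 2.22 at 14 d. It shares 552 of its 3021 exonic bases with the opposite-strand gene Zmynd15. Colec12 rose by 1.29 and Dock1 by 0.60 in the 14 d macrophages, where Scarb2 fell by 1.40, Rxra by 1.37 and Sirpa by 1.37. In macrophages from 3 d to 14 d, Thbs1 rose by 3.48, Dock1 by 0.80 and Colec12 by 0.70, and Abcg1 fell by 1.77, Mrc1 by 1.62, Anxa1 by 1.32 and Sirpa by 1.18.

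The complement C1q chains, which bridge dying cells to phagocytes, rose at 14 d in both cell types. All 3 are also on the list of interstitial macrophage markers, and the part of such cells in their rise was not tested. In macrophages C1qa rose by 6.01, C1qb by 6.81 and C1qc by 6.91 against control, and by 4.93, 5.09 and 4.92 against 3 d. In monocytes C1qa was at 2.24, 8.39, 12.9 and 6.96 CPM in controls and 118, 196, 322 and 124 CPM at 14 d, with a log2 fold change of 4.64, 95% interval 3.10 to 6.17, adjusted p = 0.00143 in edgeR's quasi-likelihood test with Benjamini-Hochberg adjustment. C1qc rose by 4.23 and C1qb by 3.86 on the log2 scale, as did Abca1, a cholesterol exporter, by 2.11. Scarf1, a class F receptor that binds C1q, fell by 1.75, Elmo2, which with Dock proteins activates Rac in engulfment, by 1.33, Cd300a by 1.06 and Elmo1 by 0.66. At 3 d Pparg, a nuclear receptor that drives Cd36 expression, fell by 2.15, in the group where Cd36 fell. The part of Pparg in the fall of Cd36 was not tested. Thbs1 fell by 1.74, Itgb5 by 1.41 and Elmo2 by 1.34 at 3 d, and Dock2 fell with a change of -1.2785. Against 3 d, the 14 d monocytes had rises of 3.55 in C1qc, 3.45 in C1qa, 3.14 in C1qb and 2.98 in Abca1, and a fall of 1.08 in Scarf1. Olr1, a receptor for oxidised lipoprotein, rose by 2.67 from 3 d to 14 d in monocytes and fell by 1.33 in macrophages.

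The promoters of the called genes with the largest rises, Stab1 and Mfge8, and falls, Cd36 and Mertk, in the 14 d macrophages are shown because these genes moved in opposite directions in the same cells. Of the 10 genes, 8 had an entry among the RefSeq promoters on GRCm38.p6, all but Msr1 and Scarb1, each 300 bases from 250 before to 50 after the start. Among the motifs searched on both strands were GAGGAA, the core bound by PU.1, TGANTCA, bound by AP-1, and AGGTCA, the short site of nuclear receptors. No matches overlapped in the sequences shown. GAGGAA was present in 28.3% of all 32851 promoters and in 4 of the 8, Marco, Axl, Stab1 and Mfge8. TGANTCA was present in 7.81% and in none of the 8, TGCTGAC in 4.67% and in Timd4, and AGGTCA in 16.3% and in Cd36 and Timd4. The Stab1 promoter lies at chr14:31168592-31168891 on the minus strand, Mfge8 at chr7:79149011-79149310 on the minus strand, Cd36 at chr5:17835847-17836146 on the minus strand, inside the annotated span of the gene, and Mertk at chr2:128698665-128698964 on the plus strand. Capitals mark matches of these motifs, GAGGAA in Stab1, its reverse complement in Mfge8 and the reverse complement of AGGTCA in Cd36, and Mertk has none. A match describes the letters only.
Stab1: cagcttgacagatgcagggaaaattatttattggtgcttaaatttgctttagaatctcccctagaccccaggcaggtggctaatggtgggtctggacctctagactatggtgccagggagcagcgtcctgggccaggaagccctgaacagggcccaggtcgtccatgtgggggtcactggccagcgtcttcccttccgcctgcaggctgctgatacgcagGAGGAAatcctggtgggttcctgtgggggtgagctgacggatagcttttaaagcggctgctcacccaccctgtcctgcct
Mfge8: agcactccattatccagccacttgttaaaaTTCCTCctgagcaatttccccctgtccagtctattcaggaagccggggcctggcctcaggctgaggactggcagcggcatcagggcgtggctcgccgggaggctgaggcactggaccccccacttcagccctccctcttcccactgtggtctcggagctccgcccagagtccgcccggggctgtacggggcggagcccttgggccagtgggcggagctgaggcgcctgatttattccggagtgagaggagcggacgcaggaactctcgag
Cd36: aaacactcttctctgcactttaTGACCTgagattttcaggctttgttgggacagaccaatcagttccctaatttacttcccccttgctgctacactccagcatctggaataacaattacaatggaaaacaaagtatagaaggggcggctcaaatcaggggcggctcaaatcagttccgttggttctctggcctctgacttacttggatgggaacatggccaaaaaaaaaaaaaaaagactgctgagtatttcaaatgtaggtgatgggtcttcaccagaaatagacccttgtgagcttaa
Mertk: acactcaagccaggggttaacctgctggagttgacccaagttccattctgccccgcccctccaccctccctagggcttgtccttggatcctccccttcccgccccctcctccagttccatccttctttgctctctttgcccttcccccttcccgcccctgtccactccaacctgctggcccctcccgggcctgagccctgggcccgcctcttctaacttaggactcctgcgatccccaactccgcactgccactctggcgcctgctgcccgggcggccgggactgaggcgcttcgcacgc

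In the GENCODE annotation of GRCm38, Stab1 lies at chr14:31139013-31168641, Mfge8 at chr7:79133768-79149060, Mertk at chr2:128698956-128802894, Axl at chr7:25757273-25788705, Cd36 at chr5:17781690-17888801 and Timd4 at chr11:46810800-46844332. Gas6 lies at chr8:13465374-13494490, Marco at chr1:120474538-120505024, Msr1 at chr8:39581685-39642673 and Scarb1 at chr5:125277087-125341094. The 10 genes lie on 7 chromosomes, and Mfge8 and Axl share chromosome 7, Cd36 and Scarb1 chromosome 5, and Gas6 and Msr1 chromosome 8. Stab1 shares 112 of its 10288 exonic bases with Nt5dc2 on the other strand. Strand use in the counting is not stated.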

How the data were processed

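The deposited tables hold read counts per gene made by the authors, 1 table for each cell type, with no scaling. Per the submitters' processing notes, reads were aligned to GRCm38/mm10 with STAR 2.7.2c or 2.7.3a, counted with featureCounts 1.6.3 and tested with DESeq2 1.26.0 or 1.28.1. Use of strand in counting was not given, so antisense genes that overlap an exon can add counts. Among the members and list genes named, this holds for 34 bases of Gas6 (Tmem255b), 112 of Stab1 (Nt5dc2), 552 of Cxcl16 (Zmynd15) and, with noncoding genes, 208 of Thbs1, 403 of Elmo1 and 460 of Dock2, and among the others most for Rac1, with 2309 (Daglb).

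Tests of the counts used edgeR 4.0.16 and limma 3.58.1 under R 4.3.3: genes with low counts were left out with filterByExpr, libraries were scaled by TMM, and the 3 groups of a cell type were compared by quasi-likelihood tests with Benjamini-Hochberg adjustment of p over the genes kept. Differences between the cell types were tested as interactions in 1 fit of the 22 samples, taken as independent. Hbb-bs, an erythroid marker, had 1431, 260, 5945 and 1920 counts in macrophage controls 1 to 4. The monocyte controls had 7448, 1779, 45293 and 10145, in the same order of size. Whether macrophages and monocytes came from the same lungs was not tested, and the interaction p-values do not allow for it. Alternatives were library size scaling, TMM factors from abundant genes (mean log2 CPM past 5), no filter, a stricter filter (mean log2 CPM past 1), a replicate block, DESeq2 1.42.0, and each library left out. Members and lists, 13 of them marker lists of cell types, were chosen with earlier results of these data known. The 10 members, Tyro3 and Pros1 are always named. Other genes of the wider lists are named when called at a mean log2 CPM above 3 with no overlap between groups, at most 5 per direction and comparison, and marker genes where their list is described. Some genes that met this rule are not reported here.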

Additional observations from a re-analysis of the deposited data

Results flagged for a closer look

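Single samples stood apart from their group in 3 of 40 tests of the spread (Dixon's ratio, the gap to the next sample over the range of the 4, in CPM), where chance flags about 1 in 20 groups. Msr1 in macrophage control 2 was the highest of its group, with a ratio of 0.962. Msr1 in monocyte 3 d sample 4 was the highest of its group, with a ratio of 0.833. Gas6 in monocyte 14 d sample 1 was the lowest of its group, with a ratio of 0.860. The cause was not tested.

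Changes differed between the cell types, macrophage change minus monocyte change on the log2 scale, for 2 of the 10 genes at 3 d, beside 18.7% of all genes tested, and 4 of the 10 at 14 d, beside 36.8%. At 3 d the differences were -2.15 for Gas6 and 2.35 for Mfge8. Genes with a mean log2 CPM of at most 1, the class of Gas6, had median 3 d changes of 0.12 in macrophages and 2.66 in monocytes. Their cell types thus differed in the same direction as Gas6. At 14 d they were -3.24 for Cd36, -3.85 for Mertk, -1.46 for Axl and 2.09 for Mfge8. The cause of these differences was not tested.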

How the results depend on the processing

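Of 667 log2 fold changes of the 10 genes recomputed under alternatives, 529 stayed the same within the limits set, 59 were weaker, 37 stronger and 42 reversed. Of 60 levels, 6 moved by more than 1 SD with library size CPM. The kind of the macrophage controls was not worked out, sex differs between 14 d and the other groups, and markers of other cells were detected at differing levels. The cause of these differences was not tested.

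Counts of called members moved as follows. In macrophages at 3 d the 1 called member became 2 in DESeq2, 5 without control 2 and 3 d sample 2, and 1 to 4 when each library was left out. Between 3 d and 14 d the 7 became 4 with library size scaling, 4 with TMM factors from abundant genes and 3 with the stricter filter. In monocytes at 3 d the 8 became 5 with library size scaling, 4 with TMM factors from abundant genes, 2 with the stricter filter and 5 to 8 when each library was left out. The stricter filter removed Gas6 from the macrophage tests and Gas6 and Timd4 from the monocyte and interaction tests, leaving 9 and 8 members, so these genes were not tested there. At 14 d in monocytes the 3 became 1 to 4 when each library was left out. Interactions at 3 d went from 2 to 1 with no filter, 1 with the stricter filter and 1 to 2 when each library was left out.

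Counts over all genes moved too. In macrophages at 3 d the 267 became 763 in DESeq2, 1647 without the 2 libraries and 77 to 1476 when each was left out. With the stricter filter 13051 at 14 d became 5018 and 11806 from 3 d to 14 d became 4236. In monocytes 11438 at 3 d became 19592 with no filter and 1468 with the stricter filter, and 10395 from 3 d to 14 d became 16664 and 1557. At 14 d against control 1914 became 1158 to 1904 when each library was left out. Interactions at 3 d went from 4995 to 1211 with the stricter filter, 2856 without the 4 libraries and 2272 to 5370 when each was left out, and at 14 d from 9829 to 3736 with the stricter filter.

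With samples paired by number as a replicate block, the macrophage count at 3 d over all genes became 133 and the monocyte count of members at 3 d became 5. Cd36 in macrophages at 3 d became 0.0076. Calls lost were Mfge8 from 3 d to 14 d in macrophages (1.24) and Marco (-1.87), Timd4 (2.30) and Mfge8 (-0.74) in monocytes at 3 d, and Mertk at 14 d in monocytes (2.04) was gained. Correlations of samples of the same number were -0.0532 to 0.23 in macrophages, above 0.1 in 2 of 9 pairs, and -0.17 to 0.52 in monocytes, above 0.1 in 3 of 12. Those 3 are among the 4 pairs of a monocyte control with a 14 d sample, at 0.33, 0.18, 0.0892 and 0.52 for numbers 1 to 4, and there control 2 and 14 d sample 3 correlated better with another number than with their own. As not every pair passed 0.1, the samples of a cell type were taken to share only a number. These correlations cannot settle whether samples of a number share a batch. Macrophage samples were not compared with monocyte samples in this way.

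Directions reversed only for changes that were not called. In macrophages at 3 d, Cd36 was 0.023 without control 2 and 3 d sample 2 and -0.24 to 0.14 when each library was left out, and Gas6 -0.63 to 0.61. Between 3 d and 14 d, library size scaling, TMM factors from abundant genes and the stricter filter gave 0.24, 0.29 and 0.15 for Marco and 0.29, 0.36 and 0.21 for Scarb1. In monocytes at 3 d, Msr1 was 0.009 with TMM factors from abundant genes and Mertk 0.56 without controls 3 and 4. At 14 d, Marco was 1.80 without those controls and -0.95 to 0.58 when each library was left out, and Timd4 -0.19 to 0.83. Between 3 d and 14 d, Scarb1 was -0.26, -0.34 and -0.26 under the 3 settings, -0.0245 in DESeq2 and -0.0404 to 0.17 when each library was left out, and Gas6 -0.40 to 0.13.

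Interactions at 3 d reversed to -0.19, -0.20 and -0.0731 for Scarb1 under the same 3 settings and to -0.13 and -0.16 for Timd4 under the first 2. Without the 4 libraries Marco was -0.0027 and Timd4 -0.25, and when each library was left out Timd4 was -0.37 to 0.57 and Mertk -0.76 to 0.18. At 14 d Marco was 0.18, 0.27 and 0.0774, Scarb1 0.36, 0.48 and 0.30, and Gas6 0.63 and 0.74. Scarb1 was 0.0146 without the 4 libraries. When each library was left out, Marco was -1.44 to 0.0787, Gas6 -0.34 to 0.19 and Timd4 -0.0088 to 1.04.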
